A study of Mus with 12 samples.

Results

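Iron handling in blood was followed through 10 genes of iron uptake, storage and export, chosen by name, and all 10 were found among the 25247 genes of the deposited blood table. They are Tfrc, Steap3, Slc11a2 and Slc25a37, which serve iron supply in red cell precursors, Slc11a1 and Hp, which are typical of myeloid cells, and Fth1, Ftl1, Slc40a1 and Ireb2, which both lineages use. The grouping rests on textbook knowledge, but the genes were chosen with earlier results of these data known. The grouping is compared with the measured levels further on.

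Red cell precursors take up transferrin-bound iron through the transferrin receptor, reduce it in the endosome, release it through a divalent metal transporter and pass it to mitochondria for haem synthesis. Macrophages and other phagocytes recover iron from old red cells and return it to plasma through the exporter ferroportin. Neutrophils carry proteins that bind iron or haemoglobin and so keep iron from microbes during inflammation. Ferritin stores iron in nearly every cell, and iron regulatory proteins adjust the mRNAs of uptake and storage genes to the iron supply.

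The libraries came from the blood of 12 female BALB/c mice, purchased at 6 weeks of age, with 3 mice in each of 4 groups and 1 library per mouse. Solvent mice received the vehicle, acetone and olive oil. DNCB mice were sensitised with 1% and challenged with 0.5% 2,4-dinitrochlorobenzene, a skin sensitiser that gives a dermatitis resembling atopic dermatitis. The scMSC and scivMSC mice received the same DNCB schedule and, over the period of the challenges, human umbilical cord mesenchymal stem cells. These were given as 100 µL under the skin in scMSC, and 50 µL under the skin with 50 µL into the tail vein in scivMSC. Both MSC groups therefore carry DNCB as well as cells of another species, and the routes differ in site and in subcutaneous volume at once. No group received cells without DNCB.

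Libraries held 52.2e6 to 65.1e6 estimated counts. These would stand for 13.04e6 to 16.3e6 fragments if each fragment gave 4 counts, which is an assumption. Haemoglobin genes took 78.4% to 89.0% of those counts, so that all other genes shared the rest. The erythroid marker list, with 9 of its 10 genes in the table, summed to between 4028 and 5083 FPKM and none of its genes was at 0 in any library. FPKM counts fragments per kilobase of gene relative to the library's fragments, so that levels can be compared between genes. Fewer cells of a type and less RNA per cell cannot be told apart in whole blood.

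A gene was tested when it reached an FPKM of 1 in at least 3 of the 12 libraries, which 8 of the 10 iron genes and 5527 genes in all did. It was called when the Benjamini-Hochberg adjusted p of edgeR's quasi-likelihood test was under 0.05 and the fold change was over 2. Total counts, haemoglobin included, set the scale, as they do for FPKM. Scaling by the trimmed mean of M values (TMM), which sets the bulk of genes equal between libraries, moved the median log2 fold change over all tested genes from 0.06 to -0.09 in DNCB against Solvent, from -0.63 to 0.06 in scMSC against DNCB and from -1.53 to 0.04 in scivMSC against DNCB. It moved that median from -0.87 to -0.01 in scivMSC against scMSC, from -0.59 to -0.03 in scMSC against Solvent and from -1.47 to -0.05 in scivMSC against Solvent. Fold changes are therefore given on both scales wherever the scale changes a call or a direction. In the F test over the 4 groups 72.3% of all tested genes had an adjusted p under 0.05, and so did 5 of the 8 tested iron genes, all but Tfrc, Fth1 and Ftl1.

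**Figure D1:**
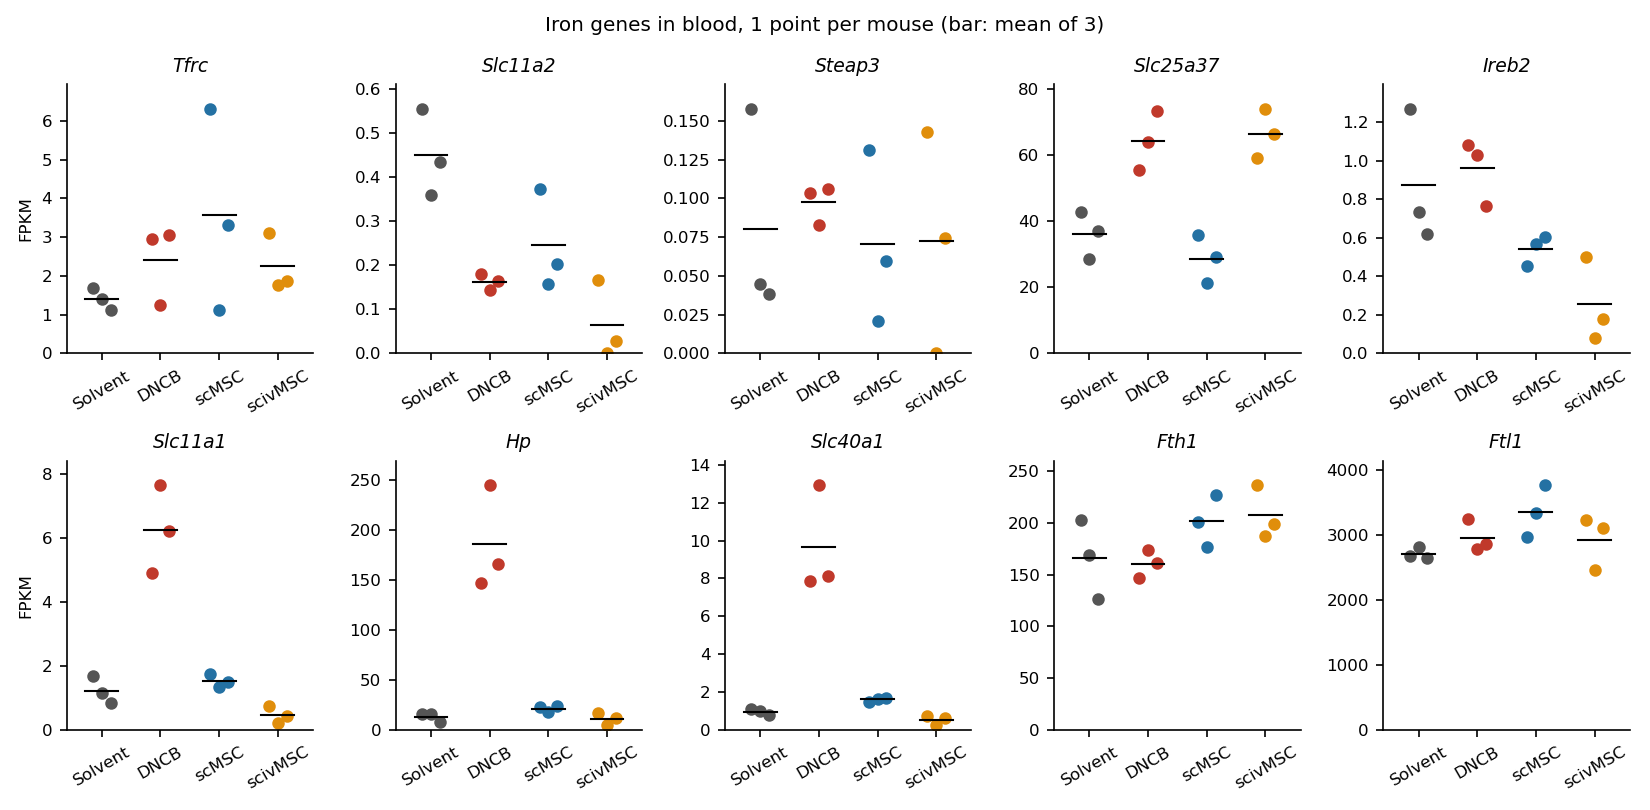
FPKM of the 10 iron genes (y axis, linear from 0) in the 4 groups (x axis), with 1 point per mouse and a bar at the mean of 3. Slc11a1, Hp and Slc40a1 stand highest in all 3 DNCB libraries, Slc25a37 is higher in DNCB and scivMSC than in Solvent and scMSC, and Ftl1 lies between 2457 and 3765 FPKM throughout.

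Uptake of transferrin-bound iron starts at Tfrc, the transferrin receptor (chromosome 16, 32608920 to 32632794, plus strand, in the table's coordinates). Its levels were 1.68, 1.39 and 1.11 FPKM in Solvent, 2.94, 1.24 and 3.04 in DNCB, 6.31, 1.12 and 3.32 in scMSC, and 3.10, 1.76 and 1.88 in scivMSC. One library each of DNCB and scMSC lay within the Solvent range while the other two lay above it, so the spread within these groups was as wide as the difference between them. On the total-count scale Tfrc was called in none of the 6 contrasts, and its largest change was in scMSC against Solvent, at 1.35 ± 0.50 (SE) on the log2 scale with an adjusted p of 0.117. On the TMM scale it was called higher in 3 contrasts, at 1.80 in scMSC against Solvent, 2.13 in scivMSC against Solvent and 1.42 in scivMSC against DNCB, where the total-count value was -0.10. Without scMSC replicate 1, the library with the highest level, the change in scMSC against DNCB went from 0.56 to -0.13.

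Steap3, the ferrireductase that reduces iron in the erythroid endosome (chromosome 1, 120190757 to 120271082, minus strand), was close to undetected. It reached at most 0.158 FPKM, with 61 counts, and was listed at 0 in scivMSC replicate 2. The DNCB libraries, at 0.0830 to 0.106 FPKM, lay within the range of each other group. Its counts were 8 in scMSC replicate 2 and 0 in scivMSC replicate 2. Steap3 stayed under the level for testing, so no difference in it is reported.

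Slc11a2 encodes DMT1, the transporter that releases iron from the endosome (chromosome 15, 100387898 to 100424092, minus strand). It too stayed under the level for testing, at 0.555, 0.360 and 0.435 FPKM in Solvent, 0.180, 0.144 and 0.163 in DNCB, 0.374, 0.158 and 0.204 in scMSC, and 0.167, 0 and 0.029 in scivMSC. These levels rest on 238, 151 and 193 counts in Solvent, 71, 59 and 67 in DNCB, 132, 64 and 79 in scMSC, and 62, 0 and 11 in scivMSC. Solvent lay above DNCB without overlap, while scMSC overlapped both. Of the scivMSC libraries 2 were at or under 12 counts, taken here as the limit that a count of 0 allows (3 fragments), so their levels cannot be told from 0.

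Mitoferrin-1, encoded by Slc25a37, carries iron into the mitochondria of red cell precursors (chromosome 14, 69241848 to 69285112, minus strand) and was the most abundant of the erythroid iron genes. It stood at 42.9, 28.5 and 37.0 FPKM in Solvent, 55.6, 64.1 and 73.4 in DNCB, 35.7, 21.2 and 29.2 in scMSC, and 59.1, 74.0 and 66.4 in scivMSC. The DNCB and scivMSC libraries overlapped each other and lay above every Solvent and scMSC library, which overlapped in turn. Slc25a37 fell in scMSC against DNCB, at -1.18 ± 0.23 on the log2 scale (mean ± SE, adjusted p = 0.00174), and was higher in scivMSC than in scMSC by 1.22 ± 0.23 (adjusted p = 0.00815). Against Solvent the DNCB change of 0.83 ± 0.23 had an adjusted p of 0.0150 but was under 2-fold. The call in scMSC against DNCB was lost on the TMM scale, at -0.53 (adjusted p = 0.226), and without scMSC replicate 2, at -0.998, whereas the call in scivMSC against scMSC stayed, at 2.31. TMM also added calls in scivMSC against DNCB, at 1.78 where the total-count value was 0.04, and in scivMSC against Solvent, at 2.47 where it was 0.87.

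The myeloid pair moved together. Slc11a1 encodes NRAMP1, which pumps metal ions out of the phagosome of macrophages and neutrophils (chromosome 1, 74375195 to 74386052, plus strand). Its levels were 1.69, 1.14 and 0.831 FPKM in Solvent, 4.92, 7.65 and 6.23 in DNCB, 1.76, 1.34 and 1.5003 in scMSC, and 0.741, 0.211 and 0.433 in scivMSC. All DNCB libraries lay above all others, all scivMSC libraries lay below all others, and Solvent and scMSC overlapped. Slc11a1 rose in DNCB against Solvent with a log2 change of 2.35 and an SE of 0.43 (adjusted p = 0.000810) and fell against DNCB by 2.03 ± 0.42 in scMSC (adjusted p = 0.00256) and by 3.73 ± 0.46 in scivMSC (adjusted p = 8.92e-06). These 3 changes kept their calls on the TMM scale, at 2.23, -1.34 and -2.22. The lower level of scivMSC than of scMSC, -1.70 ± 0.42 (adjusted p = 0.0133), and than of Solvent, -1.38 ± 0.42 (adjusted p = 0.00911), did not, at -0.88 and 0.01.

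Hp encodes haptoglobin, which binds free haemoglobin and is made by the liver and by maturing neutrophils (chromosome 8, 109575128 to 109579172, minus strand). It was measured at 15.8, 15.7 and 7.50 FPKM in Solvent, 146.5, 244.5 and 166.3 in DNCB, 22.7, 17.5 and 23.6 in scMSC, and 17.2, 4.74 and 11.5 in scivMSC. The lowest DNCB library was far above the highest of the other 9. Hp rose in DNCB against Solvent by 3.84 ± 0.43 on the log2 scale, a 14.3-fold change (adjusted p = 1.15e-05), the largest among the 8 tested iron genes in that contrast on both scales. It fell by 3.14 ± 0.42 in scMSC against DNCB (adjusted p = 0.000121) and by 4.06 ± 0.44 in scivMSC against DNCB (adjusted p = 4.63e-06), and all 3 calls remained on the TMM scale. Neither MSC group was called against Solvent, at 0.70 ± 0.39 in scMSC and -0.22 ± 0.39 in scivMSC, but on the TMM scale both were called higher, at 1.24 and 1.13.

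Ferroportin, the only known iron exporter of mammalian cells, is encoded by Slc40a1 (chromosome 1, 45908068 to 45926523, minus strand). Its levels were 1.0795, 0.989 and 0.765 FPKM in Solvent, 7.86, 12.9 and 8.13 in DNCB, 1.49, 1.64 and 1.71 in scMSC, and 0.715, 0.265 and 0.647 in scivMSC. No 2 groups overlapped, with scivMSC lowest, then Solvent, scMSC and DNCB. Although both lineages use it, Slc40a1 followed the myeloid pair. It rose by 3.35 ± 0.38 on the log2 scale in DNCB against Solvent (adjusted p = 1.15e-05), and fell by 2.59 ± 0.37 in scMSC (adjusted p = 0.000180) and by 4.15 ± 0.39 in scivMSC (adjusted p = 2.57e-06), each against DNCB. The TMM values of these changes were 3.16, -1.86 and -2.57, all called. Levels in scivMSC were below scMSC by -1.56 ± 0.36 (adjusted p = 0.0109), a call that TMM lost at -0.71, and TMM called scMSC above Solvent at 1.302 where the total-count value was 0.76.

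Ftl1 was the most abundant of the 10 in every library and Fth1 came next in all but 2 DNCB libraries, where Hp was higher. Both differed little between groups on the total-count scale. Ftl1, the ferritin light chain (chromosome 7, 45457944 to 45459884, minus strand), was at 2677, 2810.4 and 2649 FPKM in Solvent, 3242, 2786 and 2857 in DNCB, 2968, 3341 and 3765 in scMSC, and 3226, 2457 and 3114 in scivMSC. Fth1, the ferritin heavy chain that oxidises iron for storage (chromosome 19, 9980598 to 9985092, plus strand), was at 202.6, 169 and 126 FPKM in Solvent, 147, 173 and 161.6 in DNCB, 201, 177 and 227 in scMSC, and 236, 188 and 199 in scivMSC. For Fth1 the DNCB libraries lay below both MSC groups without overlap, and for Ftl1 the Solvent libraries lay below scMSC, while every other pair of groups overlapped.

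Neither ferritin gene was called in any contrast on the total-count scale, where the largest log2 change was 0.36 ± 0.20 (SE) with an adjusted p of 0.106 for Fth1 in scivMSC against DNCB and 0.30 ± 0.14 (unadjusted p = 0.0456, adjusted p = 0.171) for Ftl1 in scMSC against Solvent. With TMM both were called higher in scivMSC against DNCB, Fth1 at 2.03 and Ftl1 at 1.62, and in scivMSC against Solvent, at 1.85 and 1.58, and Fth1 also in scivMSC against scMSC, at 1.03. The ferritin pair made up 3.17% to 5.92% of all FPKM outside haemoglobin, and Ftl1 ranked 7th or 8th among all genes in every library. The table also holds near-identical ferritin copies, of which Ftl1-ps1 averaged 59.5 FPKM and Ftl2-ps 11.6 over the 12 libraries, so that reads could be split between them and Ftl1, whose level is uncertain to that extent.

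Ireb2 encodes iron regulatory protein 2, which binds the mRNAs of uptake and storage genes when iron is scarce (chromosome 9, 54863789 to 54912530, plus strand). It was low, at 1.27, 0.733 and 0.618 FPKM in Solvent, 1.0828, 1.03 and 0.764 in DNCB, 0.455, 0.567 and 0.604 in scMSC, and 0.500, 0.0817 and 0.180 in scivMSC. Solvent and DNCB overlapped, both lay above scMSC, and scivMSC ran from within the scMSC range downwards. Only 3 libraries reached 1 FPKM, 1 of Solvent and 2 of DNCB, so it passed the filter through the groups in which it was high. In scivMSC it was called lower than in DNCB, -1.91 ± 0.52 (SE, adjusted p = 0.00432), and than in Solvent, -1.77 ± 0.52 (adjusted p = 0.00718), but both calls were lost on the TMM scale, at -0.51 and -0.48.

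**Figure D2:**
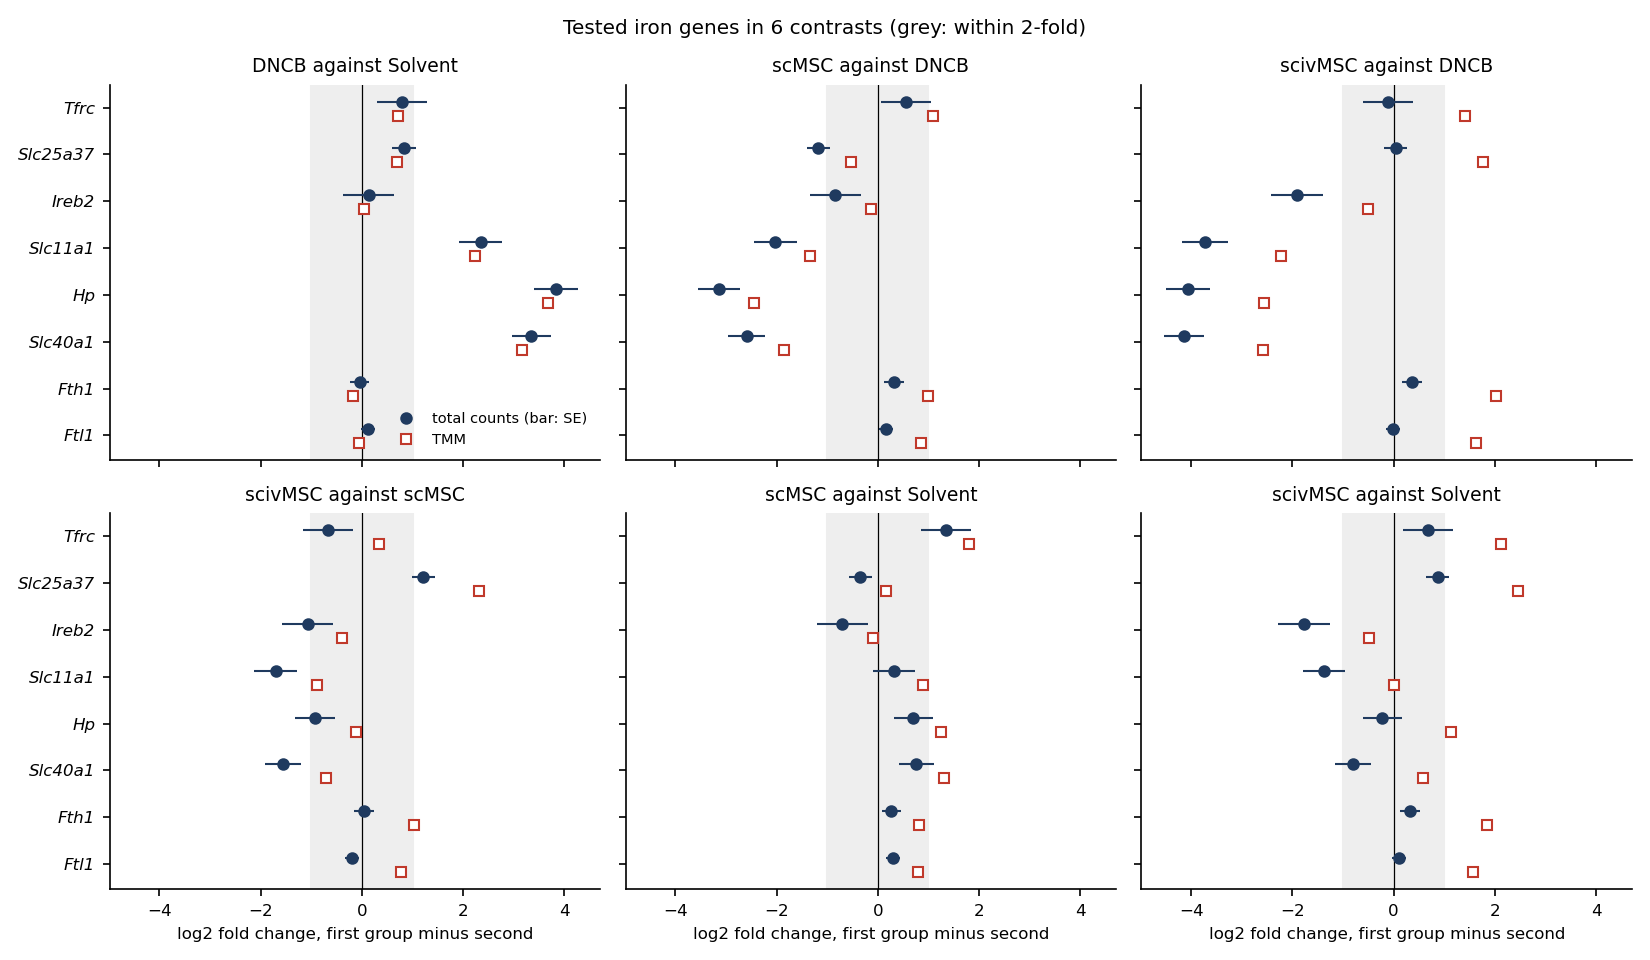
Log2 fold change (x axis, first group minus second) of the 8 tested iron genes (y axis) in the 6 contrasts, from total counts (filled circles, bar: SE) and TMM scaling (open squares), with the grey band within 2-fold. The scales lie close together in DNCB against Solvent and far apart in the scivMSC contrasts, where Ftl1 goes from -0.02 to 1.62 against DNCB.

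Counted together, 3 of the 8 tested iron genes were called higher and 0 lower in DNCB against Solvent, namely Slc11a1, Hp and Slc40a1, where 15.6% of all tested genes were called higher and 4.87% lower. TMM gave 3 higher and 0 lower, against 16.1% and 11.5% of all tested genes. The median log2 fold change of the iron genes was 0.81, beside 0.06 over all tested genes. In scMSC against DNCB 0 were called higher and 4 lower, the same 3 genes with Slc25a37, beside 1.27% and 24.9% of all tested genes. TMM left 0 higher and 3 lower there, beside 8.74% and 12.3%.

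The combined route gave 0 iron genes higher and 4 lower against DNCB, Slc11a1, Hp, Slc40a1 and Ireb2, the last of which passed the filter only through its high groups, when 1.43% of all tested genes were called higher and 62.0% lower. The 4 of 8 lower are therefore no result particular to the iron genes. With TMM the count was 4 higher, Tfrc, Slc25a37, Fth1 and Ftl1, and 3 lower, Slc11a1, Hp and Slc40a1, beside 20.6% and 18.9%. Both MSC contrasts use the same 3 DNCB libraries. Their medians over the 8 iron genes were -1.01 for scMSC and -1.01 for scivMSC, beside -0.63 and -1.53 over all tested genes.

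Between the injection routes, scivMSC against scMSC, 1 iron gene was called higher, Slc25a37, and 2 lower, Slc11a1 and Slc40a1, beside 0.344% and 30.4% of all tested genes. On the TMM scale 2 were higher, Slc25a37 and Fth1, and 0 lower, beside 13.1% and 4.92%. In scMSC against Solvent 0 of 8 were called in either direction by edgeR on total counts, beside 0.326% of all tested genes higher and 0.326% lower, although 3, Tfrc, Slc40a1 and Ftl1, had an unadjusted p under 0.05, at 0.0152, 0.0433 and 0.0456. There TMM called 3 higher, Tfrc, Hp and Slc40a1, and 0 lower, beside 7.29% and 1.21%. DESeq2 called 3, beside 556 of all 5527 tested genes. In scivMSC against Solvent 0 were higher and 2 lower, Slc11a1 and Ireb2, the last with the same limit, beside 2.59% and 59.2%, while TMM gave 5 higher and 0 lower, beside 22.4% and 13.4%.

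Ratios of 2 iron genes within a library do not depend on how libraries are scaled and compare 3 pairs of them. Only Slc25a37 to Slc11a1 sets an erythroid against a myeloid gene. Slc11a1 and Slc11a2 are paralogous metal transporters of phagocytes and of iron-absorbing cells. Slc11a1 exceeded Slc11a2 1.91 to 3.17 times in Solvent, 27.4 to 53.3 times in DNCB, and 4.70 to 8.50 times in scMSC. These 3 groups did not overlap, with Solvent lowest and DNCB highest. In scivMSC only replicate 1, at 4.43 times, had Slc11a2 above the floor of 12 counts. The ratio of the other 2 is open upwards, so the place of scivMSC beside DNCB was not determined. An exact permutation test over the groups, one-sided for a large F, gave p = 0.00149 (0.00224 adjusted over 3 ratios) over 11 libraries, scivMSC replicate 3 with its 11 counts included. With the scivMSC group left out, a choice made after seeing the data, the exact permutation test gave p = 0.00357 over 9 libraries, the smallest that their 1680 splits allow. The geometric mean was 2.64 in Solvent, 38.2 in DNCB and 6.65 in scMSC. Since 3 mice against 3 cannot give an exact two-sided p under 0.1, single pairs of groups are given as values.

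Slc25a37 relative to Slc11a1, mitochondrial against phagosomal transport, was 25.0 to 44.5 in Solvent, 8.37 to 11.8 in DNCB, 15.8 to 20.3 in scMSC and 79.7 to 351 in scivMSC. No 2 groups overlapped, and the order from low to high was DNCB, scMSC, Solvent, scivMSC. The same exact permutation test gave p = 6.49e-05, the smallest that these splits allow (0.000195 adjusted over 3 ratios). From scMSC to scivMSC the geometric mean went from 18.4 to 162, an 8.82-fold difference with Slc25a37 called higher and Slc11a1 called lower on the total-count scale.

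The ferritin chains kept a narrower ratio. Fth1 to Ftl1 lay between 0.0453 and 0.0763 over all 12 libraries, with geometric means of 0.0601 in Solvent, 0.0542 in DNCB, 0.0600 in scMSC and 0.0709 in scivMSC. The exact permutation test gave p = 0.306 (0.306 adjusted over 3 ratios), and only DNCB and scivMSC did not overlap. The 2 genes share the scaling of each library, so their calls on the TMM scale and their lack of calls on the total-count scale leave this ratio as it is.

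**Figure D3:**
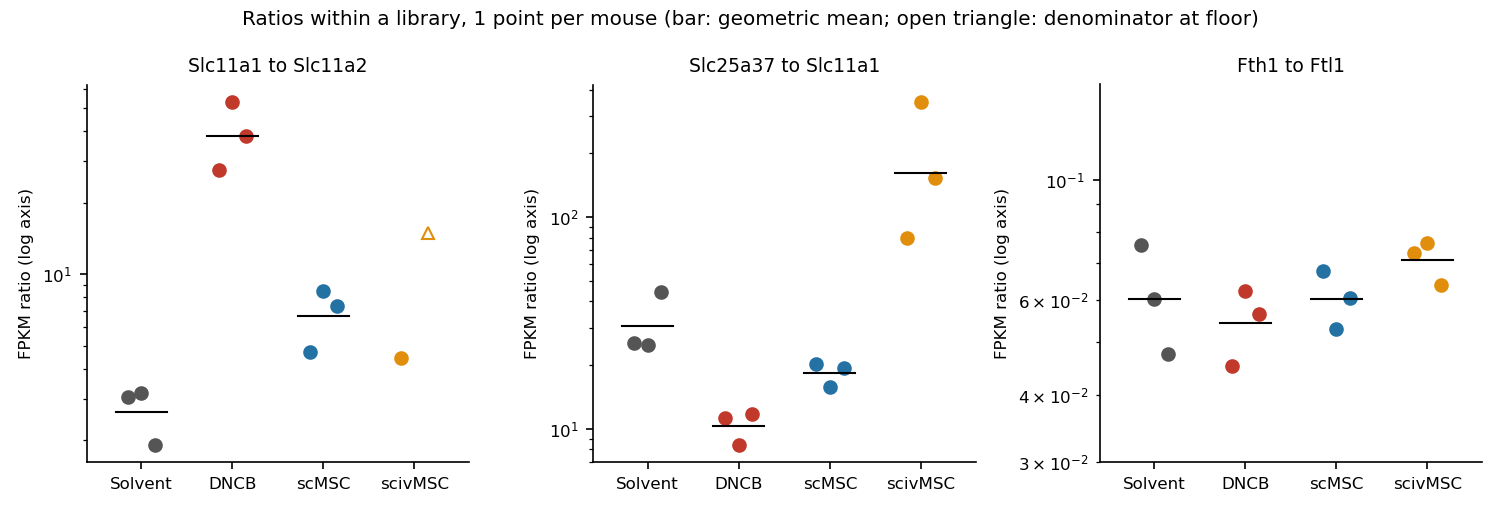
FPKM ratio of 2 iron genes within a library (y axis, log scale) in the 4 groups (x axis), with 1 point per mouse and a bar at the geometric mean where every library is above the floor. The Slc11a1 to Slc11a2 ratio is 27.4 to 53.3 in DNCB, above Solvent and scMSC at 1.91 to 8.50, with the open triangle marking a scivMSC library whose 11 counts of Slc11a2 leave the ratio open upwards, and the Slc25a37 to Slc11a1 ratio peaks in scivMSC at 79.7 to 351, while Fth1 to Ftl1 stays between 0.0453 and 0.0763.

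The levels were then set beside summed markers of blood cell types, from lists written for this purpose. All 10 neutrophil markers passed the filter, and their sum was 220 to 445 FPKM in Solvent, 6958 to 10928 in DNCB, 572 to 716 in scMSC and 243 to 729 in scivMSC. None of them was at 0 in any library. S100a8 and S100a9 made up most of the neutrophil sum, with means of 71.6 and 216 FPKM in Solvent and 2045 and 4519 in DNCB. In DNCB against Solvent 10 of 10 were called higher, and in each MSC group against DNCB 10 of 10 were called lower. Monocyte markers summed to 61.5 to 188 FPKM in Solvent, 416 to 670 in DNCB, 87.2 to 95.9 in scMSC and 81.1 to 112 in scivMSC, with Cx3cr1 and Fcgr1 each at 0 in a scivMSC library. Lyz2 made up most of that sum, with means of 101 FPKM in Solvent and 483 in DNCB, while Cx3cr1 was at 0.681 and 0.303. Of 7 tested monocyte markers 4 were called higher and 0 lower in DNCB against Solvent, beside 15.6% and 4.87% of all tested genes. Against DNCB 5 were called lower in scMSC and 6 in scivMSC, beside 24.9% and 62.0%. TMM gave 5 and 3 lower, beside 12.3% and 18.9% of all tested genes, with 1 higher in scivMSC, beside 20.6%. Of 6 tested erythroid markers 0 were called by edgeR on total counts in any contrast, with 2 at an unadjusted p under 0.05 in scivMSC against DNCB and 2 in scivMSC against scMSC. On the TMM scale all 6 were called higher in scivMSC against DNCB, against scMSC and against Solvent, beside 20.6%, 13.1% and 22.4% of all tested genes.

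Over the 12 libraries, on the log2(FPKM + 1) scale, the neutrophil sum had a Pearson correlation of 0.989 with Hp, 0.973 with Slc40a1 and 0.941 with Slc11a1, as a description in which all points share the scale of their library and the DNCB libraries form a group apart. Per 1000 FPKM of neutrophil markers, Hp was 34.1 to 40.4 in Solvent, 21.1 to 23.5 in DNCB, 30.6 to 34.3 in scMSC and 19.5 to 25.9 in scivMSC. By that measure DNCB lay below Solvent. Slc40a1 gave 2.22 to 3.47, 1.13 to 1.182, 2.08 to 2.86 and 0.980 to 1.46 in the same order of groups. For Slc11a1 the values were 2.56 to 4.31, 0.700 to 0.881, 2.18 to 2.45 and 0.866 to 1.02. The monocyte sum, mostly Lyz2, had correlations of 0.937 with Hp, 0.928 with Slc40a1 and 0.926 with Slc11a1. Per 1000 FPKM of monocyte markers DNCB lay above Solvent for Hp, at 301 to 399.9 against 84.1 to 144, and for Slc40a1, at 16.1 to 19.5 against 5.75 to 12.4, and overlapped it for Slc11a1, at 10.1 to 14.97 against 8.98 to 13.5. Whether DNCB lay above or below Solvent relative to markers thus depended on the cell type taken, and the part of neutrophil or monocyte number in the changes of these 3 genes was not tested.

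Among the erythroid genes only loose relations with the erythroid sum were seen, with a correlation of 0.514 for Slc25a37, 0.449 for Tfrc and 0.00436 for Slc11a2 over the 12 libraries. The erythroid sum itself overlapped between all groups, while Slc25a37 per 1000 FPKM of erythroid markers was 7.08 to 9.18 in Solvent, 12.6 to 15.8 in DNCB, 5.09 to 7.60 in scMSC and 11.6 to 15.6 in scivMSC. Slc25a37 thus differed without overlap between groups whose erythroid marker sums overlapped. Slc11a2, placed with the erythroid genes by its known role, ran instead with the lymphocyte lists, at 0.945 with the T cell sum and 0.854 with the B cell sum. The T cell sum was 56.5 to 89.3 FPKM in Solvent, 24.3 to 31.9 in DNCB, 32.1 to 41.4 in scMSC and 11.7 to 21.6 in scivMSC, and 0 of its 8 genes was at 0 in a library. Alas2, at group means of 4293 to 4625 FPKM, made up most of the erythroid sum, which varied little. Slc11a2 was at or under 12 counts in scivMSC replicates 2 and 3, and all points share the scale of their library. These correlations are a description, and the cell source of Slc11a2 was not tested.

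**Figure D4:**
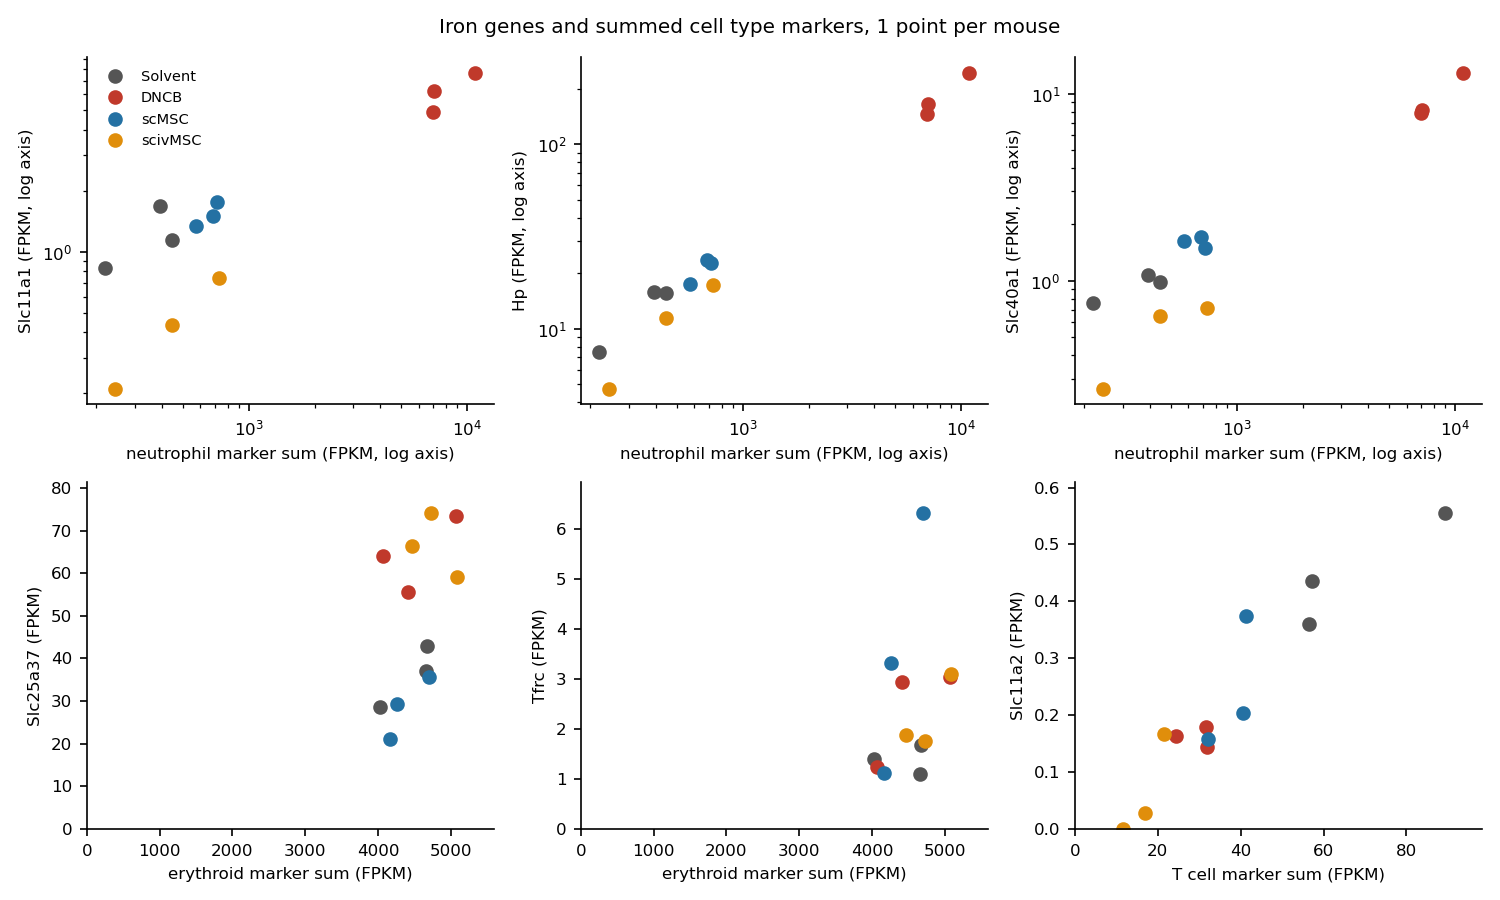
Level of an iron gene (y axis, FPKM) against the summed FPKM of a cell type's markers (x axis), 1 point per mouse, on log axes for the neutrophil panels and linear axes for the erythroid and T cell panels. Slc11a1, Hp and Slc40a1 rise with the neutrophil sum, Slc25a37 spans 21.2 to 74.0 FPKM over a narrow range of the erythroid sum, and Slc11a2 rises with the T cell sum.

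Genes most like each iron gene over the 12 libraries were taken by the correlation of log2(FPKM + 1), again as a description. For Slc11a1 they were Tgfbi (0.997), Pirb (0.993) and Slc28a2 (0.993). Hp was closest to Siglece (0.998), Hk3 (0.996) and Mmp9 (0.996), and Slc40a1 to Mtus1, Cebpd and Cpd (0.997, 0.997 and 0.996). Such likeness was common for these genes, since 510 tested genes were above 0.95 with Slc11a1, 362 with Hp and 422 with Slc40a1. The erythroid gene Slc25a37 was followed at 0.95 or more by Ube2o alone (0.951), a ubiquitin-conjugating enzyme of reticulocytes, ahead of Yipf4 (0.945) and Bcl2l1 (0.917).

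Tfrc had no gene above 0.95 and was closest to Aqp1 (0.790), Rhd (0.775) and Bex3 (0.733), of which Aqp1 and Rhd encode red cell membrane proteins. Slc11a2 was closest to Atp1b1 (0.979), Ppie (0.975) and Gm7901 (0.974), and Ireb2 to Egln2 (0.990), Ube2n (0.981) and Sap18 (0.977). Fth1 came closest to 1810058I24Rik (0.910), Gng11 (0.899) and S100a10 (0.887), and Ftl1 to Gm22133 (0.844), Rtl8c (0.838) and Mctp1 (0.833). For Steap3, which was low throughout, the closest were Mki67 (0.891), Ndufb9 (0.883) and Spop (0.863). Among themselves the iron genes split in a like way, with Hp and Slc40a1 at 0.984, Slc11a1 and Slc40a1 at 0.980 and Slc11a1 and Hp at 0.973, while Slc25a37 had 0.114 with Tfrc and -0.504 with Slc11a2.

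A wider list of 58 other iron genes, of which 55 were in the table and 23 were tested, was counted in the same way. In DNCB against Solvent 8 of 23 were called higher and 0 lower, beside 15.6% and 4.87% of all tested genes. The median log2 fold change was 0.60, beside 0.06 over all tested genes. In scMSC against DNCB 0 were higher and 11 lower, beside 1.27% and 24.9%, with medians of -0.90 in the list and -0.63 over all. In scivMSC against DNCB 1 was higher and 12 lower, beside 1.43% and 62.0%, with medians of -1.58 in the list and -1.53 over all. The 12 lower are therefore no result particular to this list. Slc25a28 and Vps35, called lower in both MSC contrasts, passed the filter only through DNCB and Solvent libraries. On the TMM scale the counts were 7 and 0, 2 and 6, and 9 and 10, so that in the MSC contrasts the direction of many of these genes depended on the scaling. The TMM shares of all tested genes are those given above for the same contrasts.

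**Figure D5:**
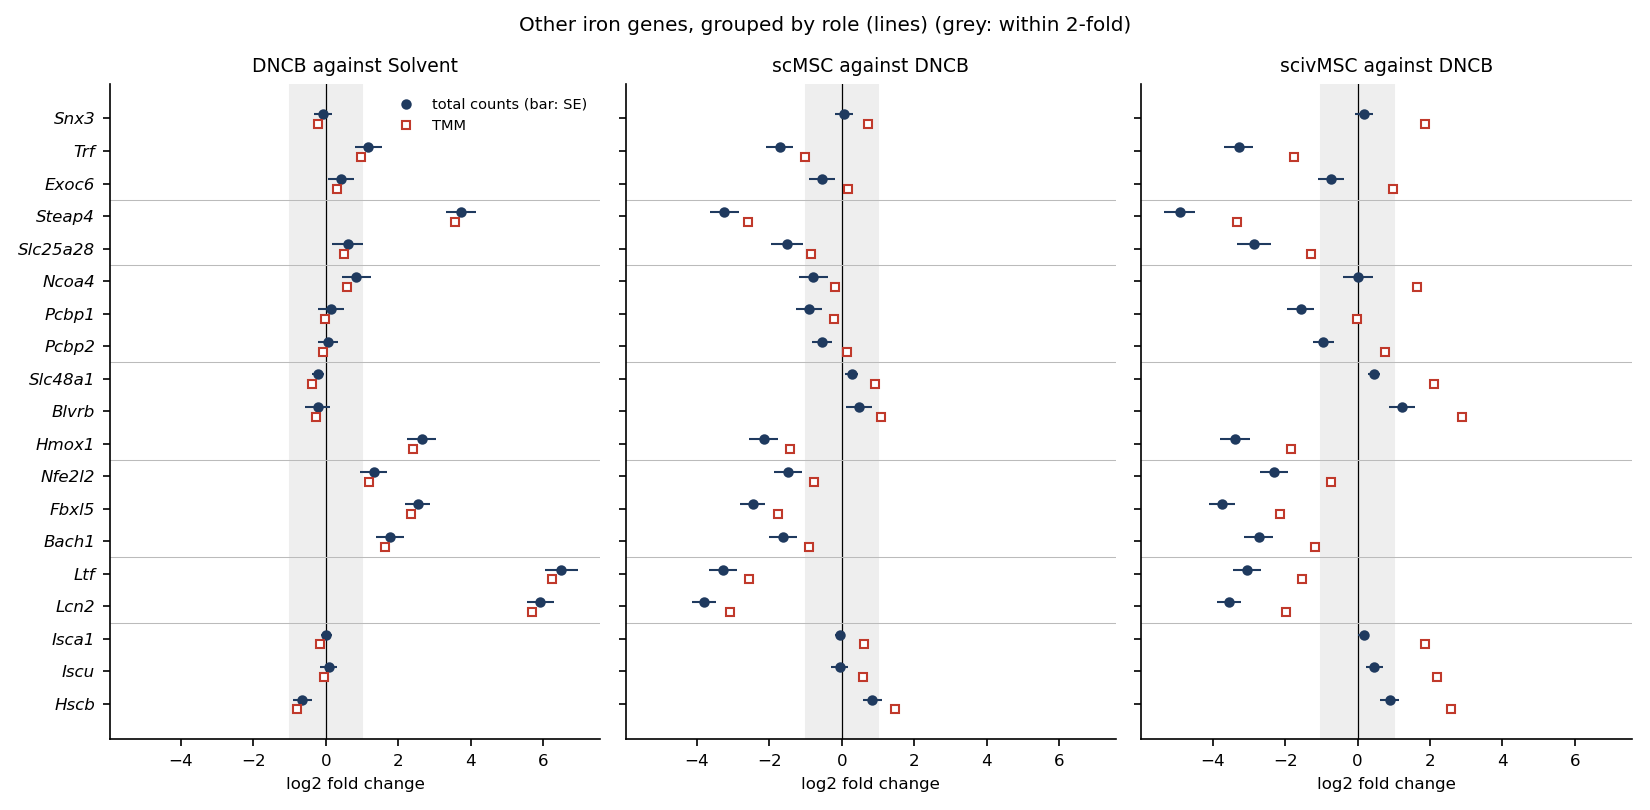
Log2 fold change (x axis) of 19 other iron genes (y axis, blocks of genes with a shared role between grey lines) in 3 contrasts, from total counts (circles, bar: SE) and TMM scaling (open squares). Steap4, Hmox1, Fbxl5, Ltf and Lcn2 lie far right in DNCB against Solvent and far left in both MSC contrasts, whereas Snx3, Isca1 and Iscu stay near 0 on the total-count scale.

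The iron-binding granule proteins of neutrophils showed the steepest rise in DNCB. Ltf, which encodes lactoferrin, went from 0.998 ± 0.18 FPKM in Solvent to 91.5 ± 27 in DNCB (SD, n = 3), or 6.50 ± 0.46 (SE) as a log2 change (adjusted p = 8.52e-08). Lcn2, the siderophore-binding lipocalin, went from 1.56 ± 0.14 to 95.2 ± 25 FPKM, a change of 5.92 ± 0.38 (adjusted p = 4.18e-08). Both fell against DNCB, Ltf by 3.28 ± 0.39 in scMSC and by 3.05 ± 0.39 in scivMSC, and Lcn2 with log2 changes of -3.80 ± 0.34 and -3.55 ± 0.34, and all of these calls stayed on the TMM scale. Both were still called above Solvent in each MSC group on both scales, with log2 changes on total counts, for scMSC and then scivMSC, of 3.22 ± 0.39 (adjusted p = 0.000768) and 3.45 ± 0.40 (adjusted p = 9.59e-05) for Ltf, and for Lcn2 of 2.12 ± 0.32 (adjusted p = 0.00573) and 2.37 ± 0.32 (adjusted p = 0.000113). The TMM values were 3.69 and 4.70 for Ltf and 2.60 and 3.71 for Lcn2. They were the 2 genes of the wider list called in scMSC against Solvent. Neutrophil marker sums, given above, also rose in DNCB and were lower in both MSC groups. In scivMSC, at 243 to 729 FPKM, these sums overlapped Solvent at 220 to 445, whereas Ltf and Lcn2 lay above Solvent without overlap.

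Of the metal transport and reduction genes 2 of 9 were tested. Steap4, a ferrireductase related to Steap3, was at 3.05 ± 1.0 FPKM in Solvent and 40.2 ± 9.9 in DNCB (SD, n = 3) and rose by 3.72 ± 0.41 on the log2 scale (adjusted p = 9.98e-06). It fell by 3.24 ± 0.40 in scMSC and by 4.91 ± 0.44 in scivMSC against DNCB, also on the TMM scale. Steap3, the erythroid member of the family, averaged 0.0976 FPKM in the same DNCB mice. Slc25a28, mitoferrin-2 and the counterpart of Slc25a37 in other cells, was called lower in scMSC (-1.52 ± 0.44) and in scivMSC (-2.87 ± 0.47) against DNCB, of which TMM kept the second at -1.29. It passed the filter only through DNCB and Solvent libraries, with highest levels of 0.738 FPKM in scMSC and 0.358 in scivMSC.

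Of 11 listed regulators of iron genes 3 were tested. All 3 were called higher in DNCB against Solvent, where 15.6% of all tested genes were. They were called lower in each MSC group against DNCB, as were 24.9% of all tested genes in scMSC and 62.0% in scivMSC. Fbxl5, an iron sensor that marks iron regulatory protein 2 for degradation, rose by 2.53 ± 0.35 in DNCB against Solvent (adjusted p = 8.24e-05) while its target's gene Ireb2 had 0.14 ± 0.50. Bach1, a haem-sensing repressor, rose by 1.77 ± 0.38 and Nfe2l2, an activator of the oxidative stress response, by 1.31 ± 0.38. Under TMM all 3 kept their calls in DNCB, but in scMSC against DNCB only Fbxl5 did, at -1.77, and in scivMSC against DNCB only Fbxl5 and Bach1, at -2.15 and -1.17. Hepcidin, encoded by Hamp in liver, was not tested and lay between 0 and 0.233 FPKM.

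For haem, 4 of 11 genes were tested. Hmox1, which encodes the enzyme that opens the haem ring and frees its iron, was at 1.77 ± 0.12 FPKM in Solvent and 11.04 ± 2.6 in DNCB (SD, n = 3), and rose by 2.64 ± 0.41 on the log2 scale (adjusted p = 0.000210). It fell by 2.15 ± 0.40 in scMSC and by 3.38 ± 0.42 in scivMSC against DNCB, with calls on both scales. Blvrb, a biliverdin reductase abundant in red cells, was the 1 gene of the wider list called higher in scivMSC against DNCB on the total-count scale, at 1.23 ± 0.36 (adjusted p = 0.00638), and was not called in DNCB against Solvent, at -0.23 ± 0.35. Slc48a1, a haem transporter, was among the most abundant, at 154 ± 12, 132 ± 13, 161 ± 13 and 181 ± 9.4 FPKM in Solvent, DNCB, scMSC and scivMSC, and was not called on total counts in the 3 contrasts.

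Transferrin cycle genes were mixed, with 1 of 4 tested called higher in DNCB against Solvent, beside 15.6% of all tested genes. Trf, which encodes transferrin itself, rose by 1.17 ± 0.37 (adjusted p = 0.0328), a call that TMM lost at 0.96, and fell by 1.72 ± 0.38 in scMSC and by 3.29 ± 0.40 in scivMSC against DNCB, called on both scales. Snx3 and Exoc6, which help to recycle and sort the transferrin receptor, had -0.08 ± 0.25 and 0.42 ± 0.36 in DNCB against Solvent and were not called on total counts in either MSC contrast against DNCB. In scivMSC against DNCB TMM called Snx3 higher, at 1.86.

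Among storage and cluster assembly genes few were called on total counts. Ncoa4, the receptor that delivers ferritin for breakdown, was not called in DNCB against Solvent (0.84 ± 0.41) or in scMSC against DNCB (-0.78 ± 0.41), and had 0.01 ± 0.41 in scivMSC against DNCB, where TMM called it higher at 1.63. The iron chaperones differed, Pcbp1 being called lower in scivMSC against DNCB at -1.58 ± 0.37, where TMM gave -0.01, and Pcbp2 at -0.95 ± 0.29 not passing 2-fold. Of 10 genes of iron-sulphur cluster assembly 5 were tested, and 0 were called on total counts by edgeR in DNCB against Solvent or in either MSC group against DNCB, with 1, 2 and 2 at an unadjusted p under 0.05. TMM called 0, 1 and 5 of them higher in these contrasts, beside 16.1%, 8.74% and 20.6% of all tested genes. Hscb was among them, at 1.48 in scMSC and 2.57 in scivMSC. The ferroxidases that load iron for export, Heph, Hephl1 and Cp, were all in the table, and 0 of 3 were tested.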

How the data were processed

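Blood RNA libraries of 12 mice were sequenced, and the authors deposited 1 table with an FPKM value and an estimated count for each gene and library. Per the submitters' processing notes, Bowtie 0.12.2, HISAT2 2.0 and StringTie 1.3.0 were used with build mm8. The coordinates of all 10 iron genes have a start or an end within 100 bases of RefSeq GRCm38, so the table's positions are printed as they stand and its build is uncertain. The deposited estimated counts are whole numbers, many of them multiples of 4. Among counts of 1 to 12, 29.0% were 4 and 16.0% were 8, but 9.7% were 1. How the counts were made is not stated, so 4 counts per fragment is an assumption. Whether reads were assigned by strand is not given in the sources used here. FPKM values include haemoglobin in the library total.

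edgeR 4.0.16 (R 4.3.3) was fitted to the counts, scaled by total counts, with 4 group means over 12 libraries and 6 contrasts. Standard errors come from the change and its F. Genes with FPKM of at least 1 in 3 libraries were tested. Replicates are separate mice. Simulated counts for DNCB against Solvent, 5527 genes with 200 changed 8-fold, gave 189 recovered by edgeR and 8 false calls. Log2 ratios within a library were tested by exact permutation of the groups, without the library in which Slc11a2 was 0.

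Named were all 10 iron genes, the 3 tested genes of highest mean FPKM in each role of the wider list, and the 3 tested genes most correlated with each iron gene. The genes and lists were chosen with earlier results of these data known. Alternatives were TMM, haemoglobin left out of the totals, no filter, a mean FPKM of at least 5, DESeq2 1.42.0, limma 3.58.1 on log2(FPKM + 1 or 0.1), only the 6 libraries compared, a replicate block and leaving out each library. Floors cover counting error only.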

Additional observations from a re-analysis of the deposited data

Results flagged for a closer look

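In 3 of the 8 tested iron genes the effects of the injection routes against DNCB differed, tested as scivMSC against scMSC with edgeR on total counts. Of all tested genes 0.344% were called higher and 30.4% lower in that contrast. The 2 iron genes called lower are therefore no result particular to the iron genes. Slc25a37 was higher with the combined route at 1.22 ± 0.23 (SE) on the log2 scale with an adjusted p of 0.00815, with the 3 scivMSC libraries above the 3 scMSC libraries. Slc11a1 was lower by -1.70 ± 0.42 (adjusted p = 0.0133) and Slc40a1 by -1.56 ± 0.36 (adjusted p = 0.0109), each in 3 of 3 libraries. On the TMM scale the values were 2.31, -0.88 and -0.71, of which only the first was called. When only the 6 libraries compared were fitted, the values were 1.22, -1.70 and -1.56 and none of the 3 was called. That fit called only 4 of all 5527 tested genes.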

How the results depend on the processing

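Of 48 values (8 iron genes in 6 contrasts), leaving out 1 library at a time gave 576 refits, of which 554 kept direction and call, 16 turned direction, 5 gained and 1 lost a call. Of the 16 calls 15 were kept in each of these refits, and Slc25a37 in scMSC against DNCB was lost without scMSC replicate 2. Counts of iron genes called then ran from 3 to 5 in scivMSC against scMSC (5 without scivMSC replicate 1) and from 0 to 1 in scMSC against Solvent (1 without scivMSC replicate 2), and the wider list's in scMSC against DNCB from 7 (without DNCB replicate 2) to 11. The refits named in brackets called 2944, 824 and 813 of all 5527 tested genes in these contrasts. Changes that turned were uncalled and ran from -0.13 to 0.99 (Tfrc, scMSC against DNCB), -0.42 to 0.10 (Tfrc, scivMSC against DNCB), -1.09 to 0.023 (Tfrc, scivMSC against scMSC), -0.054 to 0.14 (Slc25a37, scivMSC against DNCB), -0.68 to 0.15 (Hp, scivMSC against Solvent), -0.21 to 0.13 (Fth1, DNCB against Solvent), -0.059 to 0.14 (Fth1, scivMSC against scMSC), -0.10 to 0.10 (Ftl1, scivMSC against DNCB) and -0.062 to 0.51 (Ireb2, DNCB against Solvent). TMM called 7, 3 and 5 iron genes in scivMSC against DNCB, scMSC against Solvent and scivMSC against Solvent, DESeq2 likewise 7, 3 and 5. Among all 5527 tested genes TMM called 2180, 470 and 1981 there, and DESeq2 2232, 556 and 2028. Under TMM and DESeq2 the values that turned were Tfrc at 1.42 and 1.39 in scivMSC against DNCB and 0.33 and 0.36 in scivMSC against scMSC, Slc25a37 at 0.16 and 0.15 in scMSC against Solvent, Slc11a1 at 0.0064 and 0.036, Hp at 1.13 and 1.15 and Slc40a1 at 0.59 and 0.61 in scivMSC against Solvent, and Ftl1 at -0.048 and -0.00423 in DNCB against Solvent, 1.62 and 1.61 in scivMSC against DNCB and 0.77 and 0.81 in scivMSC against scMSC. With haemoglobin left out of the totals, Tfrc became 0.38 and Ftl1 0.54 in scivMSC against DNCB, Hp 0.12 in scivMSC against Solvent, and Ftl1 -0.047 in DNCB against Solvent and 0.0024 in scivMSC against scMSC. A mean FPKM of at least 5 left 1095 genes tested, with Slc25a37, Hp, Fth1 and Ftl1 as the only iron genes. All 24 of their values kept direction and call. It gave 1, 2, 1, 1 and 0 iron genes called in DNCB against Solvent, scMSC against DNCB, scivMSC against DNCB, scivMSC against scMSC and scivMSC against Solvent. In the first 3 it gave 3, 3 and 5 of the wider list. Beside these stood 309, 337, 532, 174 and 485 calls among the 1095 genes. No filter gave 20 of the wider list in scivMSC against DNCB, where it called 5952 of 25247 genes. In scivMSC against Solvent it called 3 iron genes lower, where the filtered fit called 2, beside 7116 of the 25247 genes lower. limma with a pseudocount of 1 gave 1 iron gene in scivMSC against scMSC and 0 in scivMSC against Solvent, beside 330 and 1764 of all 5527 tested genes. Fits of only the 6 libraries compared, with fewer samples, gave 0, 1 and 1 iron genes in scivMSC against scMSC, scMSC against Solvent and scivMSC against Solvent. The same fits called 4, 1149 and 2990 of all 5527 tested genes. For the scaling changes and limma the cause was not tested. The 3 ratio tests kept their side of 0.05 in every alternative, among them a pseudocount of 0.1 and the scivMSC group left out of Slc11a1 to Slc11a2, both chosen after seeing the data.

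Replicate numbers are shared by the groups in the labels, but same-numbered mice did not deviate together (correlations from -0.20 to 0.17, with 3 of 18 pairs over 0.1). The replicate block gave 3, 4, 4, 4, 0 and 2 iron genes called in the 6 contrasts, adding Ireb2 in scivMSC against scMSC at -1.34, and ratio p values of 0.00347, 0.00174 and 0.384 (exact permutation within blocks). With the block 1165, 1541, 3627, 1922, 11 and 3464 of all 5527 tested genes were called. Depth limits Slc11a2 and Steap3, which were both at 0 in scivMSC replicate 2, with Slc11a2 also at 11 counts in scivMSC replicate 3.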
